A study of Mus musculus with 4 samples.

Results

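The serpins are a large family of proteins that fold around a metastable core with an exposed reactive loop. In the inhibitory members a protease cuts the loop and is trapped as the serpin snaps into a stable form, while a few members have lost inhibition and carry hormones or assist folding. Clade a holds secreted proteins, most of them plasma proteins of hepatocytes, and its founder is alpha-1-antitrypsin, whereas clade b serpins lack a classical signal peptide and act mostly inside cells. Liver is the main source of the circulating serpins that restrain coagulation, fibrinolysis and complement.

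The members were all genes whose symbol in the platform table starts with Serpin and that have at least 1 probe set assigned to a single symbol. This gave 48 of 19938 genes, 15 in clade a and 33 in the other clades, with 24 of these 33 in clade b. Serpins without such a probe set were not analysed here. They were measured on 4 Affymetrix Mouse Gene 1.0 ST arrays of mouse liver. The KO-labelled arrays came from mice with the genotype SIRT6Co/Co ;Alb-Cre, in which Cre is expressed from the albumin promoter, at ages of 2 and 8 months. The WT-labelled arrays came from mice labelled WT SIRT6 at the same ages. Each group was 1 array of RNA combined from 3 pairs of mice. The labels do not say whether WT mice carried Cre or the conditional allele, nor do they name the strain, sex or feeding state. The albumin promoter acts in hepatocytes, and the labels do not say whether other liver cells of the KO-labelled mice were targeted too. Pooling removes the spread between animals from the data.

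All values are log2 values from RMA, in which a difference of 1 is a doubling, and a level can be compared between arrays but not between genes. Of the 48 members, 20 had a mean level above the 40th percentile of all genes (3.34) and entered the test, 9 in clade a and 11 in the other clades. The members nearest to that limit were Serpinb6b above it, at a mean level of 3.63, and Serpina3a below it, at 3.06. The test was an additive limma model of genotype and age over the 4 arrays, adjusted by the Benjamini-Hochberg method over 11963 genes. It weighs a genotype effect seen in 2 arrays per genotype against a variance estimated mostly from other genes of similar level. The gene's own inconsistency between the ages adds 1 residual degree of freedom, against 11.3 from the other genes. The test does not measure the spread between pools of one group. The differences at a single age compare 1 array with 1 array and carry no test.

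The Sirt6 probe set did not separate the labels, with 4.54 and 4.46 in the KO-labelled arrays at 2 and 8 months, against 4.55 and 4.50 in the WT-labelled arrays (limma adjusted p 0.92). Which exons it covers is not stated, and the directions below rest on the labels. The hepatocyte markers of the tissue check were high on every array, with albumin (Alb) between 12.52 and 12.60. Of these 8 markers 1 rose in the KO-labelled arrays (G6pc), beside 6.81% of all genes tested. All 3 measured Y-linked genes were detected on every array, and Xist read 2.66 and 2.29 in the KO-labelled arrays, against 4.42 and 3.08 in the WT-labelled arrays. The part of Xist and sex in the serpin differences was not tested. In bulk tissue, fewer cells of a type and less RNA per cell cannot be told apart.

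The promoters of 4 of the 6 serpins that passed the test are shown first, as Serpinb1a and Serpina4-ps1 had no promoter window. They are RefSeq windows of 250 bases before to 50 after the annotated start on GRCm38.p6, and 41 of the 48 members had one, the others being Serpina10, Serpina4-ps1, Serpina6, Serpina9, Serpinb13, Serpinb1a and Serping1. Capitals mark matches, on either strand, to the motifs searched: STAT (TTCNNNGAA), AP-1 (TGANTCA), C/EBP (TTNNGCAA), the TATA box (TATAAA), the heat shock element and HNF1 (full site and core). Serpina7 lies on chromosome X, at chrX:139085170-139085469 on the minus strand, Serpina12 at chr12:104044394-104044693 on the minus strand, Serpina3n at chr12:104406458-104406757 on the plus strand and Serpina11 at chr12:103989894-103990193 on the minus strand.
Serpina7: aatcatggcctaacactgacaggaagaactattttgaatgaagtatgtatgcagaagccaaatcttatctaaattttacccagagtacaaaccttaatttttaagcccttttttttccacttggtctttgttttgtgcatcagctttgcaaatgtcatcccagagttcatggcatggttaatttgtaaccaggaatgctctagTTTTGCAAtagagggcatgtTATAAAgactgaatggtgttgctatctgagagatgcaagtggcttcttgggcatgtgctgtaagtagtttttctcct
Serpina12: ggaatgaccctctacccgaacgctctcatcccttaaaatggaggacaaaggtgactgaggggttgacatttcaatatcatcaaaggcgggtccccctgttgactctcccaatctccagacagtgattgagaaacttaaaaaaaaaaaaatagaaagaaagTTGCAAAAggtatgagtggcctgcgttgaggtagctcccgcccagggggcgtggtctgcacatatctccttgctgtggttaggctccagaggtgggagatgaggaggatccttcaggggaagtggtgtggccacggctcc
Serpina3n: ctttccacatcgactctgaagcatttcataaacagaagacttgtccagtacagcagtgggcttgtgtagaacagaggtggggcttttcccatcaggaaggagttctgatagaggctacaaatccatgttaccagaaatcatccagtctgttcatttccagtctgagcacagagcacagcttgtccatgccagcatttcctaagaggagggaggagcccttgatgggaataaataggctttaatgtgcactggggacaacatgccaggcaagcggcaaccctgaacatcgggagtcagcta
Serpina11: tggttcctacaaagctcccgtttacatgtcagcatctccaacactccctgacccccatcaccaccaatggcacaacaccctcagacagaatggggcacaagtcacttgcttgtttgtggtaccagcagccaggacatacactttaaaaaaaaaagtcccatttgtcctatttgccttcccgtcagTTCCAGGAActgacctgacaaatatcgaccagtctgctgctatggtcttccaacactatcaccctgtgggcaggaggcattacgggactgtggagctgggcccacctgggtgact

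The Serpina7 window holds a TATA box whose first base is at -27 and a C/EBP match at -47, which lie at -10 and -30 from the other annotated start of the gene. The Serpina12 window has 1 C/EBP match at -90. The Serpina11 window has 1 STAT match at -65, or at -51 from the gene's other annotated start. The Serpina3n window has none of the motifs. Of all 32851 promoter windows in the table, 10.8% hold the C/EBP letters, 8.3% the STAT letters and 13.6% the TATA letters. Among 63 windows of serpin genes, 17 hold the C/EBP motif, 11 the STAT motif and 18 the TATA box. The AP-1 motif is in 12, and the HNF1 or heat shock letters are in 0. The 63 windows belong to 54 serpin symbols, of which 41 are members. Several windows of a single gene, and those of alike paralogs, were counted separately. AP-1 letters were found in 7.81% of all windows, and HNF1 core and heat shock letters in 0.399% and 0.603%. None of these motifs was found in all 4 windows. A match of letters is a description and not a measured binding site. No mismatch was allowed, and the HNF1 and heat shock letters are rare among all windows. Finding them in 0 of 63 windows therefore does not show that serpin promoters lack such sites.

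Of the 20 tested serpins, 4 rose and 2 fell in the KO-labelled arrays, and 14 did not pass. Among all genes tested 11.1% were called, 6.81% higher and 4.26% lower (815 and 510 genes, against 897 and 864 after a further quantile normalization). The same 4 serpins that rose were more than 1.5-fold higher at both ages, as were 1.78% of all genes tested, and each was also more than 2-fold higher at both ages, as were 0.652% of all genes. No serpin was 1.5-fold lower at both ages. Both KO-labelled arrays lay above both WT-labelled arrays for 8 of the 20 serpins and below them for 5, against 29.1% and 25.7% of all genes tested.

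**Figure D1:**
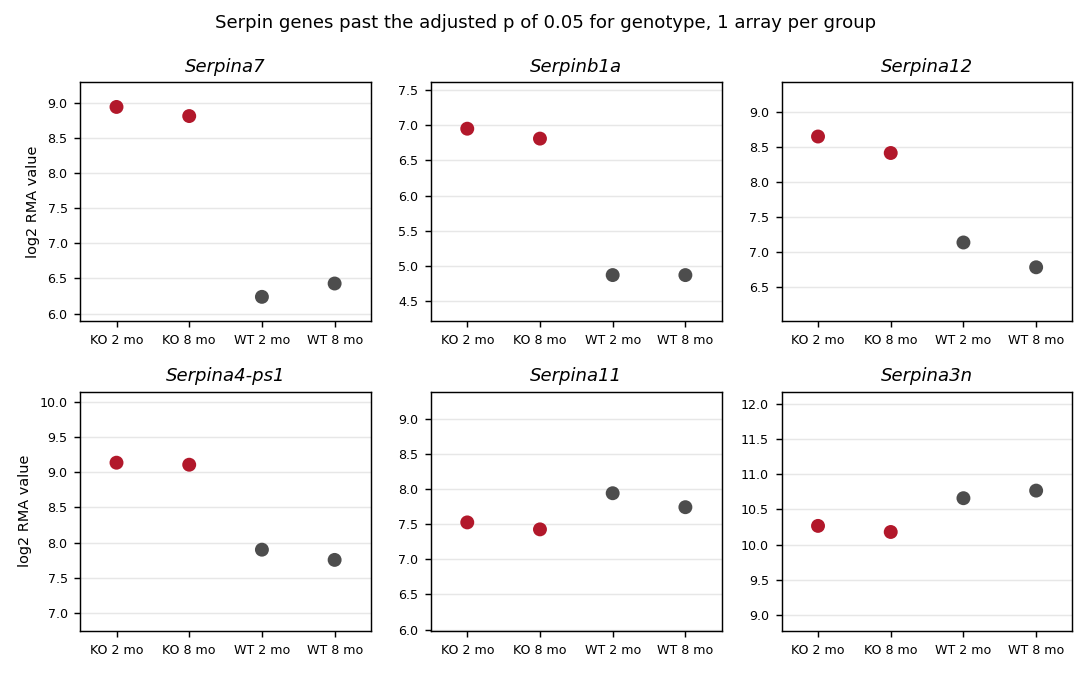
Levels (log2 RMA value, vertical axes of equal span) of the 6 serpins past the adjusted p of 0.05, with 1 point per array, KO-labelled arrays in red on the left and WT-labelled arrays in grey on the right of each panel. In every panel the KO-labelled points lie entirely above or below the WT-labelled points, by 2.54 on average for Serpina7 and by 0.37 in the other direction for Serpina11.

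Serpina7 encodes thyroxine-binding globulin, a serpin that carries thyroid hormone in plasma and does not inhibit proteases. It read 8.94 and 8.81 in the KO-labelled arrays at 2 and 8 months, against 6.24 and 6.43 in the WT-labelled arrays. The 2 genotypes did not overlap, and each KO-labelled value was 6.50-fold (2 months) or 5.21-fold (8 months) above that of the WT-labelled array of its age. The mean difference was 2.54 (SE 0.10, limma adjusted p 2.8e-09), the highest of the tested serpins. The other hormone-carrying serpin, the corticosteroid-binding globulin Serpina6, read 10.62 and 10.53 in the KO-labelled arrays, against 10.37 and 10.41 in the WT-labelled arrays. It was higher at both ages, by 0.25 and 0.13, but the mean of 0.19 did not pass (SE 0.08, adjusted p 0.14, 95% interval 0.03 to 0.36 before adjustment over genes).

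Serpina12 encodes vaspin, a secreted inhibitor known as an adipokine that is also made in liver. It read 8.65 and 8.41 in the KO-labelled arrays, against 7.14 and 6.79 in the WT-labelled arrays, with no overlap. It rose by a mean of 1.57 (SE 0.08, limma adjusted p 1.2e-07), or 2.84-fold at 2 months and 3.08-fold at 8 months. Serpina4-ps1, which RefSeq annotates as a transcribed pseudogene, follows Serpina12 along chromosome 12 with 1 gene between them. It read 9.14 and 9.11 in the KO-labelled arrays, against 7.90 and 7.75 in the WT-labelled arrays, and rose by 1.30 (SE 0.08, adjusted p 3.9e-07). Both neighbours were therefore higher by similar amounts at both ages, with differences of 1.51 and 1.62 for Serpina12 and 1.24 and 1.35 for Serpina4-ps1.

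Neither of the members next to this pair in the order of serpins was tested. Serpina11, which is 2 places before Serpina12 in the order of serpins, read 7.53 and 7.43 in the KO-labelled arrays, against 7.94 and 7.74 in the WT-labelled arrays. It fell by 0.37 (SE 0.09, limma adjusted p 0.015), a call that ended without the filter (adjusted p 0.058), without the intensity trend (0.081), after median centring (0.082) and with every probe set fitted singly (0.18). Serpina9, between Serpina11 and Serpina12, and Serpina5, after Serpina4-ps1, were below the level filter, with differences of -0.33 and -0.11 for Serpina9 and 0.00 and -0.17 for Serpina5.

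**Figure D2:**
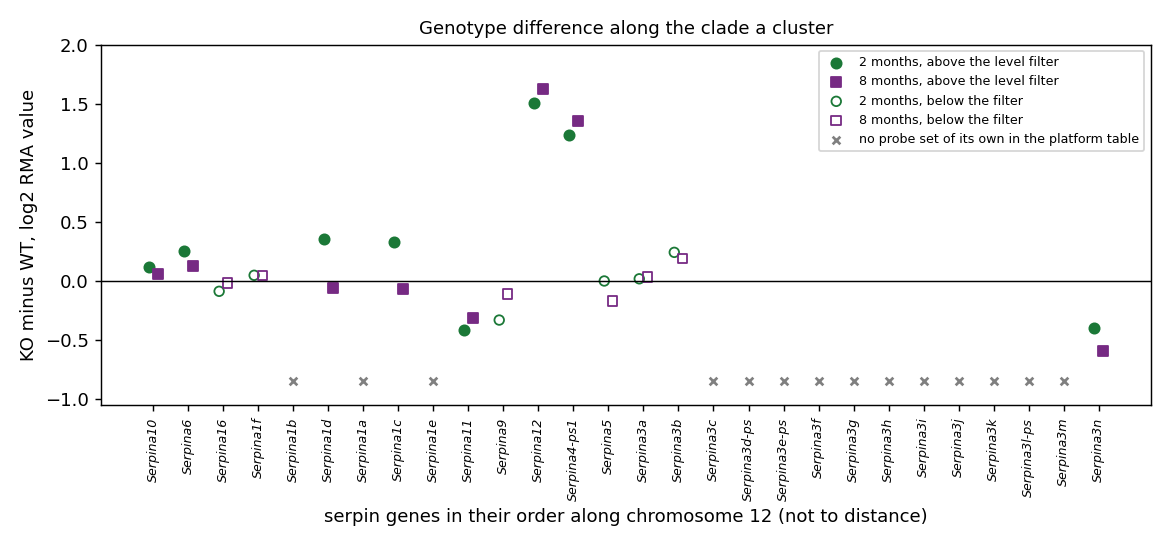
KO minus WT (log2 RMA value, vertical axis) for the 28 serpin genes and pseudogenes of chromosome 12 in their RefSeq order, with circles for 2 months, squares for 8 months, open symbols for members below the level filter and crosses for genes with no single-symbol probe set in the platform table. Serpina12 and Serpina4-ps1 lie between 1.24 and 1.62, and the other measured genes lie between -0.59 and 0.35.

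At the far end of the cluster, Serpina3n, a secreted inhibitor that rises in the acute phase response in mice, fell in the KO-labelled arrays. It read 10.27 and 10.18 there, against 10.66 and 10.77 in the WT-labelled arrays. The difference was -0.39 at the younger and -0.59 at the older age, a mean of -0.49 (SE 0.08, limma adjusted p 0.0012). When every probe set was fitted singly, a setting added after the data were seen, its adjusted p was 0.099. The other measured Serpina3 paralogs, Serpina3a and Serpina3b, were below the filter, with levels between 2.48 and 3.13 on the 4 arrays and mean differences of 0.03 and 0.22. A further 11 Serpina3 genes and pseudogenes of the RefSeq order had no single-symbol probe set in the platform table and were not analysed here.

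The alpha-1-antitrypsin genes gave no call for genotype. Mice have several near-identical copies, and the array reads them through probe sets of which 2 are assigned to 5 paralogs at once. One of them read 11.72 and 11.46 in the KO-labelled arrays, against 11.55 and 11.51 in the WT-labelled arrays, so the genotypes overlapped. The differences at 2 and 8 months were 0.17 and -0.05 for that probe set and 0.04 and -0.05 for the other, with limma adjusted p-values of 0.78 and 0.99 when every probe set was fitted singly. The single-symbol probe sets gave 11.56 and 11.28 for Serpina1c in the KO-labelled arrays, against 11.23 and 11.35 in the WT-labelled arrays, and 6.33 and 5.97 for Serpina1d in the KO-labelled arrays, against 5.97 and 6.03 in the WT-labelled arrays. Both were higher at 2 months only, by 0.33 and 0.35, with adjusted p-values of 0.43 and 0.49 and 95% intervals of the mean difference from -0.07 to 0.33 and from -0.11 to 0.40. Signals of these paralogs may not be separable, but no transcript or probe sequences were compared. The promoter windows of Serpina1a to Serpina1e are alike. They lie mostly before the annotated start, so they do not show what the probes read. In pairwise alignments 91.7% to 98.4% of paired bases were equal, and 1 run of 59 bases was found unbroken in all 5 windows and in no other window of the table. In Serpina1c it lies at chr12:103904958-103905016 on the minus strand, from -66 to -8.
Serpina1 shared run: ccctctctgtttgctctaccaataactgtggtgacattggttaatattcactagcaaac

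Outside clade a, 1 serpin was called. Serpinb1a encodes an intracellular inhibitor of neutrophil serine proteases such as elastase. It read 6.95 and 6.81 in the KO-labelled arrays, against 4.87 and 4.87 in the WT-labelled arrays, 4.23-fold and 3.84-fold higher with no overlap. The mean difference was 2.01 (SE 0.11, limma adjusted p 1.0e-07). Its paralogs Serpinb1b and Serpinb1c were below the filter with levels between 1.67 and 2.10 and mean differences of 0.015 and -0.06. None of 8 neutrophil and mast cell markers passed the level filter. Their summed linear RMA values were 50.3 and 51.9 in the KO-labelled arrays, against 54.2 and 55.6 in the WT-labelled arrays. Of 9 tested Kupffer cell and macrophage markers 2 rose (Cd5l and Vsig4) and 1 fell (Lyz2), beside 6.81% and 4.26% of all genes tested. The summed values of the 10 in the table were 577 and 499 in the KO-labelled arrays, against 550 and 422 in the WT-labelled arrays. The part of macrophages in the Serpinb1a difference was not tested.

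The other tested clade b serpins are intracellular inhibitors as well, and none passed. Serpinb6b read 3.47 and 3.44 in the KO-labelled arrays, against 3.82 and 3.80 in the WT-labelled arrays, lower by 0.35 and 0.36 (limma adjusted p 0.11). Serpinb6a and Serpinb9, an inhibitor of granzyme B, were lower by 0.48 and 0.46 at 2 months but only by 0.04 and 0.02 at 8 months, with adjusted p-values of 0.26 and 0.35. For both genes the WT-labelled array at 2 months was the highest, at 5.62 and 4.32, against 4.97 to 5.13 and 3.87 to 4.05 on the other arrays. Serpinb8 read 4.62 and 4.70 in the KO-labelled arrays, against 4.53 and 4.35 in the WT-labelled arrays, a mean difference of 0.22 (adjusted p 0.35).

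The plasma inhibitors of clades c to g showed small differences. Antithrombin (Serpinc1), the main inhibitor of thrombin and factor Xa, read 10.60 and 10.56 in the KO-labelled arrays, against 10.58 and 10.63 in the WT-labelled arrays. Heparin cofactor II (Serpind1), another thrombin inhibitor, read 10.17 and 10.04 in the KO-labelled arrays, against 10.10 and 10.17 in the WT-labelled arrays. Neither passed (limma adjusted p 0.89 and 0.86). The plasmin inhibitor alpha-2-antiplasmin (Serpinf2) read 10.77 and 10.85 in the KO-labelled arrays, against 10.95 and 10.84 in the WT-labelled arrays. The C1 inhibitor (Serping1), which restrains complement and the contact system, read 11.18 and 11.05 in the KO-labelled arrays, against 11.05 and 11.08 in the WT-labelled arrays. In these 4 genes the genotypes overlapped, and the sign of the difference was not the same at both ages. The non-inhibitory PEDF gene Serpinf1 read 9.75 and 9.67 in the KO-labelled arrays, against 9.80 and 9.79 in the WT-labelled arrays. The 95% intervals of the mean difference of these 5 genes lay within -0.26 and 0.21, so differences of 1.5-fold (0.58) lie outside them. Like the test, these intervals do not measure the spread between pools of one group. The clade a inhibitor Serpina10, which acts on factor Xa with protein Z, read 7.62 and 7.50 in the KO-labelled arrays, against 7.50 and 7.44 in the WT-labelled arrays, with an interval from -0.09 to 0.28.

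Serpinh1, or Hsp47, is a chaperone of procollagen in the endoplasmic reticulum and not an inhibitor. It read 4.15 and 4.21 in the KO-labelled arrays, against 4.13 and 3.90 in the WT-labelled arrays, a mean difference of 0.17 (SE 0.14, limma adjusted p 0.51). Its list of collagens and collagen-modifying enzymes had 12 tested genes, of which 2 rose (Col4a2 by 0.45 and P4ha1 by 0.39) and 4 fell, the lowest being Col1a2 at -0.72 and Col6a1 at -0.58. The list median was -0.19. Among all genes tested 6.81% rose and 4.26% fell. The stellate cell and fibroblast markers, which share 3 collagens with that list, had 5 of 10 genes that fell and 1 that rose. The lowest was Acta2, the smooth muscle actin of activated stellate cells, at 4.62 and 4.43 in the KO-labelled arrays, against 6.48 and 6.45 in the WT-labelled arrays (mean difference -1.94, limma adjusted p 2.4e-07). The summed linear values of the list, to which the uncalled Dcn (mean difference 0.09) adds most, were 1191 and 1145 in the KO-labelled arrays, against 1365 and 1212 in the WT-labelled arrays. Their part in the Serpinh1 values was not tested.

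**Figure D3:**
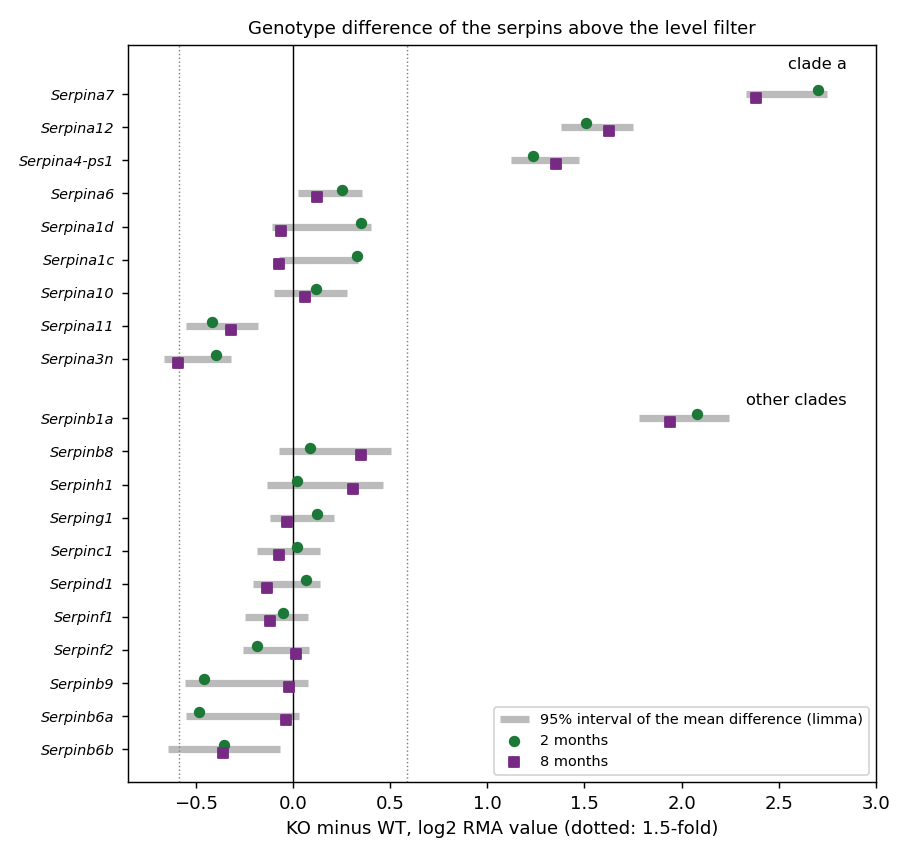
KO minus WT (log2 RMA value, horizontal axis) of the 20 serpins above the level filter, at 2 months (circles) and 8 months (squares), with grey bars for the 95% interval of the mean difference from limma and dotted lines at 1.5-fold. The genes Serpina7, Serpinb1a, Serpina12 and Serpina4-ps1 lie right of the dotted line at both ages, and 10 of the 11 genes outside clade a lie within 0.49 of 0.

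Clade a and the other clades differed in how many members were called, as a description with no test. In clade a 3 of 9 tested members rose and 2 fell, whereas in the other clades 1 of 11 rose and 0 fell (10 not called by limma, of which Serpinb6b alone had an unadjusted p under 0.05), beside 6.81% higher and 4.26% lower among all genes tested. Both clade a falls, of Serpina3n and Serpina11, were lost when every probe set was fitted singly (adjusted p 0.099 and 0.18). The counts also depend on the standard error, which varies with level. Serpina11 was called at -0.37 (SE 0.09, mean level 7.66), whereas Serpinb6b was not at -0.36 (SE 0.13, mean level 3.63). The part of level in the clade counts was not tested. For the tested members of clade a the median difference was 0.33 (2 months) and 0.06 (8 months). In the other clades it was 0.02 and -0.03, and over all genes tested 0.01 and 0.00. The median of the absolute mean difference was 0.37 in clade a and 0.17 in the other clades, against 0.14 over all genes tested. Clade b alone, with 5 tested members, was at 0.26, and its median mean difference was -0.24. The share of members above the filter also differed, with 9 of 15 in clade a and 11 of 33 elsewhere. Over all members with a value the medians of the mean difference were 0.09 and -0.06, against -0.02 for all 19938 genes. The higher median of clade a at 2 months stands at Serpina1c, whose signal may be shared with other paralogs.

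**Figure D4:**
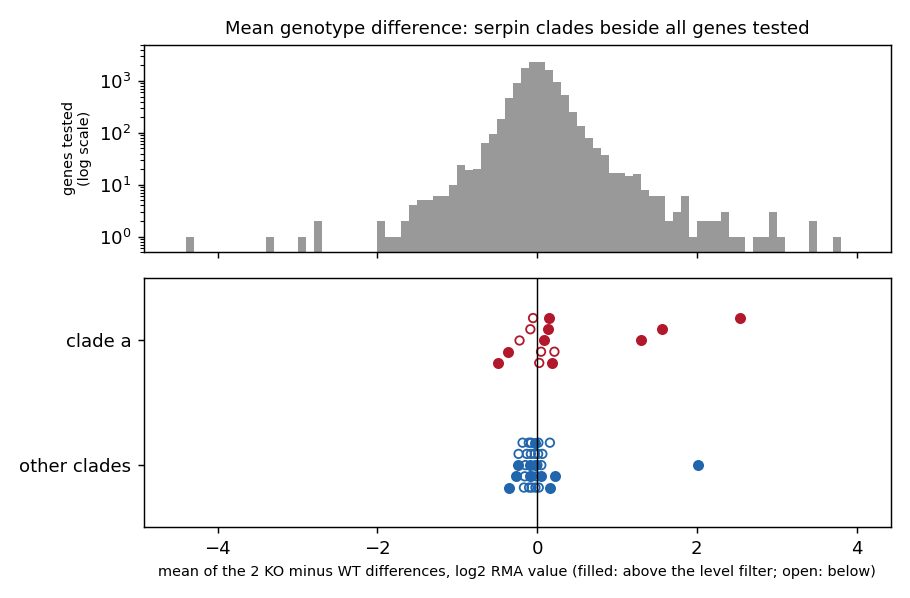
Mean of the KO minus WT differences at both ages (log2 RMA value, horizontal axis) for all 11963 genes tested as a histogram with a log count axis (top) and for each member of clade a and of the other clades as a point (bottom, filled where above the level filter, spread vertically only for visibility). Clade a spans -0.49 to 2.54, and outside clade a all members but Serpinb1a lie between -0.36 and 0.22.

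The 28 members below the level filter, 6 in clade a and 22 elsewhere, had levels between 1.41 and 3.13 on all 4 arrays. Most belong to clade b, with 19 genes, which include the skin and stratified epithelium serpins Serpinb5, Serpinb7, Serpinb12 and Serpinb13. The neuronal inhibitor neuroserpin (Serpini1) was at 2.14 and 2.21 in the KO-labelled arrays, against 2.32 and 2.39 in the WT-labelled arrays. None of the 28 was 1.5-fold apart in any of the 4 comparisons of arrays, and their mean genotype differences ranged from -0.23 for Serpine3 to 0.22 for Serpina3b. These members entered no test.

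No serpin passed the limma test for 8 against 2 months, with 1 gene called among all 11963 (0.00836%). At an unadjusted p under 0.05 there were 2 serpins, Serpina12 and Serpinb6a, and 3.6% of all genes. Serpina12 was lower at 8 than at 2 months by 0.23 in the KO-labelled and 0.35 in the WT-labelled arrays (unadjusted p 0.0046, adjusted p 1). Serpinb6a was 1.5-fold lower at 8 months in the WT-labelled arrays, at -0.61, and at -0.16 in the KO-labelled arrays, and it was the only serpin past that fold in either genotype. Of all genes tested, 0.652% were past that fold in each genotype, with no test. The age difference had opposite signs in KO-labelled and WT-labelled arrays, with both at least 0.1, in 3 of the 20 serpins (Serpina1c, Serpina7 and Serpinb9), near the 16.4% of all genes tested. The genotype differences of the 4 serpins that rose lay between 1.24 and 2.70 at a single age. Their age differences lay between -0.35 and 0.19. These 4 were picked by their genotype difference, so the contrast follows in part from that choice.

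The proteases that serpins act on were set beside them. Of 21 tested genes on that list, which also holds the lectin Mbl2, 2 rose and 5 fell, and the list median was -0.04. Among all genes tested 6.81% rose and 4.26% fell. Coagulation factor XI (F11), a target of antithrombin, fell by 0.95, reading 7.19 and 7.11 in the KO-labelled arrays, against 8.10 and 8.10 in the WT-labelled arrays. Cathepsin L (Ctsl) fell by 0.90. The activator of hepatocyte growth factor Hgfac and the complement protease C1s1, a target of the C1 inhibitor, rose by 0.78 and 0.45. Thrombin (F2) and plasminogen (Plg) were at 0.01 and -0.04 (adjusted p 0.97 and 0.77). The neutrophil proteases Elane, Ctsg and Prtn3, targets of Serpinb1a, were below the filter on these arrays.

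Of 19 tested genes for folding, quality control and secretion of serpins in the endoplasmic reticulum, 5 rose and 0 fell. Among all genes tested 6.81% rose and 4.26% fell. The list medians were 0.21 at 2 months and 0.10 at 8 months. The disulfide isomerase Pdia4 and the ubiquitin ligase Syvn1 led with 0.71 and 0.54, while Derl3 and Derl1 were at -0.21 and -0.14 without passing. The list of serpin cofactors and clearance receptors had 1 of 10 genes that fell, the syndecan Sdc4 at -0.42, and 0 that rose. Lrp1, the receptor that clears serpin and protease complexes, was at 0.14 (adjusted p 0.31).

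Among 18 tested regulators of hepatic serpin genes 2 rose and 2 fell, beside 6.81% and 4.26% of all genes tested. The interleukin-6 receptor Il6ra, which mediates the acute phase response, fell most. It read 6.55 and 6.41 in the KO-labelled arrays, against 7.46 and 7.71 in the WT-labelled arrays, a mean of -1.11. Foxa2 fell by 0.49, and Smad3 and Socs3 rose by 0.47 and 0.45. The hepatocyte factors Hnf4a and Cebpa were at -0.02 and -0.01. Of 6 tested hormone carriers and hormone enzymes, 1 rose, the glucocorticoid-activating enzyme Hsd11b1 by 0.28. The thyroid hormone carrier transthyretin (Ttr) was at 0.13 and the non-inhibitory serpin-fold protein angiotensinogen (Agt) at 0.00, without passing. The symbol Agt does not start with Serpin, so the member counts and clade medians above leave this gene out. Of the other marker lists, 2 of 4 erythroid genes rose, Car1 by 0.73 and Alas2 by 0.64. The other erythroid genes, Slc4a1 and Klf1, were at 0.22 and -0.41 without passing. The summed erythroid values, to which Car1 adds most, were 340 and 308 in the KO-labelled arrays, against 220 and 199 in the WT-labelled arrays. Among endothelial genes 1 of 9 rose. Of the 14 tested cholangiocyte, mesothelial, lymphocyte, platelet and exocrine or adipose genes, 0 passed by limma. How these lists relate to the serpin differences was not tested.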

How the data were processed

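Mouse liver RNA, 1 pool per group, was measured on 4 arrays. The deposited log2 values are RMA values, and the submitters' processing notes name Affymetrix Expression Console 1.0v. RMA corrects background, quantile normalizes and summarises probes, which compresses differences of dim probe sets. No source used here gives the genome build or which arrays were normalized together. Medians were 3.52 and 3.56 for the KO-labelled and 3.57 and 3.58 for the WT-labelled arrays at 2 and 8 months. An array has no read depth, and the number of arrays limits the precision.

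Of 35556 probe sets, 21789 had 1 symbol, 1621 had several and 12146 were not listed. Single-symbol probe sets were averaged per gene (19938 genes, 999 with more than 1), and RefSeq of GRCm38.p6 changed 0 symbols. Gene order and promoters are from RefSeq of that assembly. Genes above the 40th percentile by mean level (11963) were fitted in limma 3.58.1 under R 4.3.3 (lmFit, eBayes, intensity trend, 1 residual degree of freedom, prior 11.3), at a Benjamini-Hochberg adjusted p of 0.05. Tested on simulated data (20 data sets of 11963 genes, of which 200 were changed), a median of 78.5% of 1.5-fold genotype changes was recovered, and 3.12% to 28.2% of calls were false. Alternatives were no filter, a 20th percentile filter, no trend, median centring, quantile normalization, cyclic loess, the brightest probe set, an adjusted p of 0.01 and a 2-fold threshold. All serpins may be named, with at most the 2 highest and 2 lowest tested genes of each list; F2, Plg, Elane, Ctsg, Prtn3, Hnf4a, Cebpa, Agt and the named cell type and sex markers fall outside that rule and were chosen after their values were seen. Proteins were not used here. Members and lists were chosen with earlier results of these data known.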

Additional observations from a re-analysis of the deposited data

Results flagged for a closer look

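The age difference (8 minus 2 months) ran in opposite directions, by at least 0.1 on the log2 scale, in the 2 genotypes for 3 of the 20 tested serpins, near the share of 16.4% among all genes tested. It was -0.28 in the KO-labelled and 0.13 in the WT-labelled arrays for Serpina1c, -0.13 and 0.19 for Serpina7, and 0.16 and -0.27 for Serpinb9. Each value compares 1 array with 1 array, so the difference between the genotypes was not tested.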

How the results depend on the processing

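The 6 calls for genotype became 5 without the filter, without the intensity trend, under median centring and at an adjusted p of 0.01, and 4 when every probe set was fitted singly, a setting added after the data were seen. Over all genes the calls numbered 1325, against 752 without the filter, 846 without the trend and 199 probe sets fitted singly. The 5 serpin calls under median centring were 4 higher and 1 lower. Serpina7, Serpinb1a, Serpina12 and Serpina4-ps1 were called in all 8 settings of the gene fit, with mean differences of 2.49 to 2.58, 1.96 to 2.05, 1.51 to 1.61 and 1.26 to 1.33. Serpina3n was called in the same 8, at -0.52 to -0.45, but not with every probe set fitted singly, where Serpina11 was not called either (adjusted p 0.18). Serpina11 was called in 5 of 8, at -0.42 to -0.33. The count of serpins called for age stayed at 0 and that of serpins 1.5-fold apart at both ages at 4, also with a 2-fold threshold. The median of the other clades, -0.03, was -0.0758 with the filter at the 20th percentile, which adds dimmer members, and 0.0076 under median centring, which shifts all genes by about 0.04. Under median centring the genotype difference turned to 0.015 for Serpinc1 and 0.0076 for Serpind1, and the age difference to -0.0095 for Serpina3n. The age difference of Serpinc1 turned to 0.0166 under quantile normalization and to 0.0087 under cyclic loess. None of these was called, and the cause was not tested. The fit has age as a term, so it compares KO with WT within each age. No further paired analysis was possible because each group is 1 array and the labels carry no replicate numbers. Likewise no array could be left out, since the fit then has no residual degrees of freedom. Differences of dim serpins are limited by signal over background.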
